A study of Mus musculus with 16 samples.

Results

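The sites described here are CTCF binding sites on DNA that also carried a CLIP peak of CTCF in undifferentiated mouse embryonic stem (ES) cells. Such a peak was taken as RNA contact, and libraries from non-irradiated cells were not used as background. A site was taken when a ChIP peak of day 0 replicate 2 overlapped a ChIP peak of day 0 replicate 1 and held at least 1 reproducible CLIP peak. A CLIP peak was reproducible when a day 0 replicate 1 peak, on either strand, was overlapped on the same strand by a replicate 2 peak. Of 32588 replicated day 0 ChIP peaks, 656 met this rule (2.01%). Of these, 620 lay in a transcribed region of the day 0 RNA-seq list and 36 lay outside any such region. Among the 14900 replicated ChIP peaks inside transcribed regions the share was 4.16%. The other 14280 replicated peaks in transcribed regions, called the other transcribed sites, served for comparison. The members were thus chosen by the day 0 ChIP and CLIP peak lists, and the day 0 values of these lists are given as a description, with no test.

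CTCF, a DNA-binding protein with an array of zinc fingers, occupies insulators and the borders of chromatin domains and, together with cohesin, holds chromatin loops. It has also been found to bind RNA, including transcripts of the X-inactivation centre, the part of the X chromosome from which inactivation of an X is controlled in female cells. ChIP maps the places on DNA where the protein sits. CLIP recovers RNA that UV light has crosslinked to the protein, so a CLIP peak lies on the strand of the transcript and a ChIP peak has no strand.

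The cells were female hybrid mouse ES cells. Day 3 cells had been kept for 3 days in suspension without LIF, the cytokine that holds ES cells undifferentiated, and day 0 cells grew attached with LIF. CLIP was made from UV-irradiated cells with anti-FLAG M2 beads, in 2 libraries of day 3 cells and 2 of day 0 cells. Nuclear RNA was sequenced from 1 library of each day. The cells of both assays are labelled CAST/Ei x 129/Sv/Jae. ChIP used a CTCF antibody on cells labelled 129S1/CastEiJ x 129S1, in 1 library of day 3 cells and 2 of day 0 cells, so the strain labels of the RNA and DNA assays differ. The labels do not describe the FLAG-tagged protein or its promoter, and they do not say whether replicates were separate cultures. The CLIP lists of day 3 replicates 1 and 2 hold 106382 and 165695 peaks, against 114016 and 213181 for day 0. The ChIP list of day 3 holds 41264 peaks, against 45377 and 76745 for day 0 replicates 1 and 2. Depth in reads is unknown. Marker genes of ES cells were not checked, because the listed regions carry no gene names; positions are given in build mm9.

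The 656 sites held 1141 reproducible CLIP peaks, of 20286 in the whole day 0 list. Most sites held few: 448 held 1 CLIP peak, 112 held 2, 43 held 3 and 53 held 4 or more, up to 14 in each of 2 sites. Every site carried CLIP on a single strand, 336 on the plus strand and 320 on the minus strand. Almost all of these CLIP peaks followed the transcript: of 1016 that lay in regions transcribed on 1 strand, 1011 (99.5%) were on that strand, against 99.6% of the reproducible CLIP peaks elsewhere. The CLIP peaks in the sites were of ordinary size. Their median length was 49 bp (quartiles 27 and 63 bp), against 49 bp (28 and 61 bp) for the other reproducible CLIP peaks. Their median rank by the authors' score was the percentile 60.8 of the replicate 1 list, against 60.4 elsewhere.

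At the edge of the rule, 19 of the sites with a single CLIP peak shared under 10 bp with it, and 1 of these shared 1 bp. Of the other transcribed sites, 5167 held a day 0 CLIP peak that was not reproducible: 1160 a replicate 1 peak alone, 2760 a replicate 2 peak alone, and 1247 peaks of both libraries that did not overlap on a strand. A further 41 lay within 100 bp of a reproducible CLIP peak outside them. The other 9113 transcribed sites held no day 0 CLIP peak.

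The CTCF peaks that carried CLIP were a little longer than other CTCF peaks. Over all lengths they had about the same score, and among middle and long peaks a lower one. Their median length was 2378.5 bp (order-statistic 95% interval 2350 to 2423 bp), against 2291 bp at the other transcribed sites, and 29.3% of them exceeded 3000 bp, against 15.0%. A longer peak has more room to hold a CLIP peak, so the rule touches this value. With the replicate 1 ChIP list alone the difference of medians was 12 bp. With replicate 2 alone it was 133 bp, and with CLIP replicate 2 or 1 alone it was 51 or 52 bp. The authors' ChIP score had a median of 31.4 at the CLIP-carrying sites, against 33.0 at the others, in day 0 replicate 2. In replicate 1 the medians were 31.8 against 33.9, and in the day 3 list 35.9 against 37.5. This small deficit did not hold in every setting: the difference of -1.57 in replicate 2 became 0.309 with replicate 1 alone and 0.175 when CLIP replicate 2 alone chose the sites, and shrank to -0.182 when CLIP replicate 1 alone did. The 14900 sites were also split into 3 classes of near-equal size by peak length, cut at 2201 and 2392 bp. In the long class the median score was 30.7 (95% interval 28.9 to 32.7) against 36.4 (36.0 to 37.0). In the middle class it was 37.3 (35.8 to 39.6) against 41.1 (40.6 to 41.5). In the short class it was 22.7 (20.5 to 24.2) against 22.6 (22.2 to 22.9).

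Nuclear RNA was more abundant where CTCF sites carried CLIP. The region with the highest FPKM (fragments per kilobase of transcript, scaled to library size) that overlapped each site had a median of 16.7 FPKM (95% interval 14.9 to 17.9), against 8.29 FPKM (8.08 to 8.47) at the other transcribed sites. With regions of at least 300 bp only, which leaves out very short regions with extreme FPKM, the medians were 16.3 against 8.03 FPKM. When CLIP replicate 2 or 1 alone chose the sites, the difference in median was 4.67 or 4.93 FPKM, against 8.37 with both. Few sites with low RNA passed the rule: 20 of 4968 (0.403%) in the low FPKM class (up to 5.22), 216 of 4968 (4.35%) in the middle class and 384 of 4964 (7.74%) in the high class (above 13.2). The transcribed regions themselves were shorter, with a median of 35825.5 bp, against 49868 bp. At day 3, 96.0% of the 620 sites were again in a listed transcribed region, against 83.5% of the other transcribed sites. Sites listed on both days were compared by the highest overlapping FPKM of each day, on the log2(FPKM + 1) scale. The median of day 3 over day 0 was 0.18, against 0.04, while the quartiles were -0.67 and 0.84, against -0.93 and 0.80. Over all sites in day 0 regions, with a region missing at day 3 set to 0, the medians were 0.15 against -0.19. Regions were taken on either strand and not matched between days, so no change in a given RNA is read from these medians. RNA-seq had 1 library per day, so these levels have no replicate spread, and the part of RNA level in the calling of CLIP peaks was not tested.

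Within transcripts, most of the sites were interior, as were most of the other transcribed sites. Whether they held starts more or less often than other CTCF sites depended on the setting. Neither end of a transcribed region lay in 417 sites, which is 63.6% of 656 and 67.3% of the 620 in transcribed regions. The share was 71.6% at the other transcribed sites and 71.5% over all 14900. A further 41 sites held the 5' end alone, 59 the 3' end alone and 103 both kinds of end. A 5' end lay in 144 of 656 sites (22.0%, exact 95% interval 18.8 to 25.3), against 21.5% of the other transcribed sites (20.8 to 22.1), where the share over all 14900 was 21.5%. Among the 620 sites in transcribed regions it was 23.2%. A 3' end lay in 24.7% of the 656 sites and in 26.1% of the 620 (22.7 to 29.8), against 20.8% of the other transcribed sites (20.1 to 21.5). Among peaks of like length the rule was met as often with a 5' end as without: 2.69% against 2.67% in the short class, 3.55% against 3.62% in the middle class and 5.89% against 6.35% in the long class. The comparison changed with the CLIP libraries used: when replicate 2 alone chose the sites the share with a 5' end was 15.3%, against 23.2%, and with replicate 1 alone it was 16.6%, against 22.1%. With the upper 50% of each list by score it was 28.3%, against 21.8%, a difference of 6.48 points whose 95% interval began at 1.52. Where a site held a 5' end, 276 CLIP peaks in 128 sites were on the strand of that transcript. Of these, 182 lay downstream of the start, at a median of 708 bp, with 74 of them within 500 bp, and 94 lay upstream.

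Inside the ChIP peaks, CLIP peaks did not gather at the centre. Of 1130 day 0 CLIP peaks with their midpoint in a site, 365 (32.3%, exact 95% interval 29.6 to 35.1) were in the central part of the ChIP peak, taken as the middle 33.3% of its length, where an even spread would put the same share. The median distance from the midpoint of the ChIP peak was 693 bp. At day 3, 125 of 432 reproducible CLIP peaks in the same sites (28.9%, 24.7 to 33.5) were in the central part. In the other transcribed sites the shares were 31.2% for day 0 replicate 1 peaks and 32.4% for replicate 2 peaks. Over 10 equal parts of the ChIP peak, the day 0 share ran between 7.52% and 11.9%, with the lowest value in part 5. Chromatin for ChIP was sheared to fragments longer than most CLIP peaks, which limits how closely the centre of a ChIP peak places the bound DNA.

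**Figure D1:**
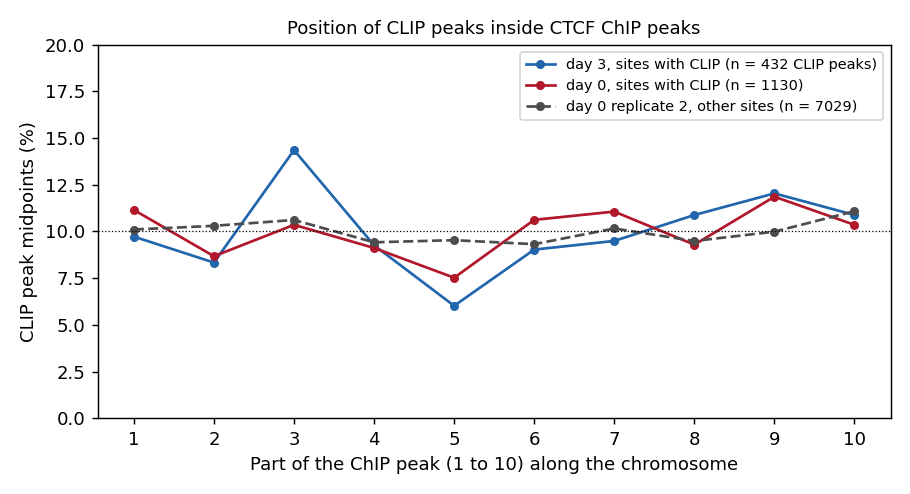
Share of CLIP peak midpoints (%, y axis) in each of 10 equal parts of the CTCF ChIP peak along the chromosome (x axis), for reproducible day 3 and day 0 CLIP peaks in the CLIP-carrying sites and for day 0 replicate 2 CLIP peaks in the other transcribed sites. The dotted line marks an even spread, and no set of points rises towards the middle.

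Over all 14900 replicated ChIP peaks in transcribed regions, whatever CLIP they carried, CLIP was about as dense at CTCF sites as nearby. Reproducible day 3 CLIP peaks numbered 0.0179 per kb per ChIP peak within 1 kb of the midpoint, against 0.0171 at 5 to 10 kb, a ratio of 1.04. At day 0 the values were 0.0259 against 0.0254, a ratio of 1.02. In bins of 500 bp across 10 kb on either side, the density ran from 0.0145 to 0.0217 at day 3, and from 0.0217 to 0.0297 at day 0. The lowest day 0 bin was the one just before the midpoint. The ChIP peaks were chosen to overlap transcribed regions, while bins further out were counted whether or not they were transcribed. The ratios therefore do not compare transcribed DNA alone, and a lower density at CTCF sites within transcripts was not tested.

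**Figure D2:**
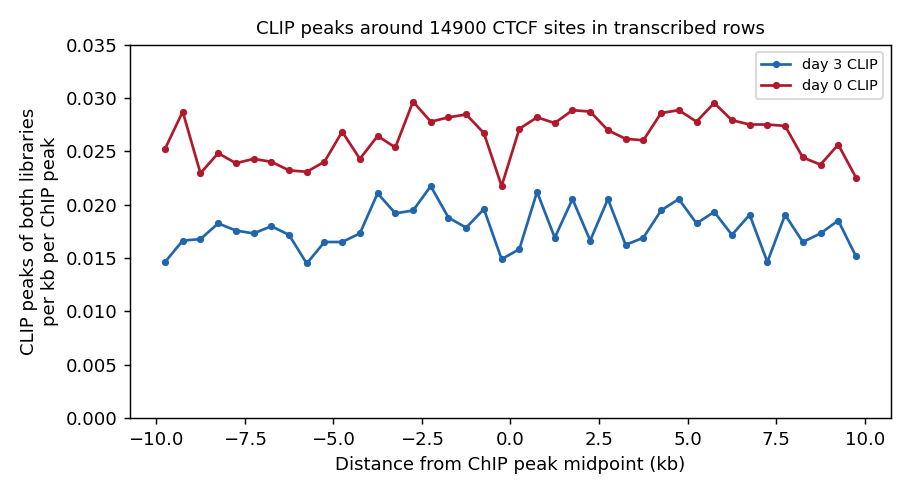
Density of reproducible CLIP peaks (peaks per kb per ChIP peak, y axis) against distance from the ChIP peak midpoint (kb, x axis) over the 14900 replicated ChIP peaks in transcribed regions, at day 3 and day 0. Neither line has a maximum at the midpoint: the ratio of the density within 1 kb to that at 5 to 10 kb is 1.04 at day 3 and 1.02 at day 0. Bins were counted whether or not they were transcribed.

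The CLIP-carrying sites more often had further CLIP peaks nearby, counted on either strand and in any transcript. Within 10 kb outside the ChIP peak, 65.1% of them had a further reproducible day 0 CLIP peak, against 16.8% of the other transcribed sites, and 55.6% had a reproducible day 3 CLIP peak, against 13.2%. The share of sites meeting the rule was 1.75% with no flanking day 0 CLIP peak, 9.51% with 1 or 2 and 27.6% with 3 or more. Across the 620 sites in transcribed regions, the number of CLIP peaks in a site had a Spearman rho of 0.35 with the number outside it, 0.19 with FPKM, 0.18 with peak length and -0.06 with ChIP score. These correlations are across sites that share libraries and sometimes a transcript, and are a description. The 620 sites lay in 556 transcribed regions merged by strand, of which 503 held 1 site, 42 held 2 and 11 held 3. Regions with 2 or more held 117 of the 620 sites (18.9%), and the 14280 other sites lay in 8554 regions. The intervals do not take this sharing into account.

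Most of the sites were still bound by CTCF on DNA at day 3, at a share close to that of other sites. A day 3 ChIP peak overlapped 544 of 656 CLIP-carrying sites (82.9%, exact 95% interval 79.8 to 85.7), against 12094 of 14280 other transcribed sites (84.7%, 84.1 to 85.3), with 84.6% over all 14900. Sites with an unreproduced day 0 CLIP peak were at 84.3% and sites with none at 84.9%. The difference of -1.77 percentage points had a 95% interval of -4.89 to 0.987. It depended on which sites entered: among peaks no longer than the median of 2270 bp it was 66.0% against 73.4%, a difference of -7.39 points (-14.2 to -1.18), and with the replicate 2 ChIP list alone it was 40.2% against 46.3%. With the replicate 1 list alone it was 69.1% against 68.6%. Within classes of length the shares were 56.4% against 66.6% for short peaks, 91.1% against 93.6% for the middle and 89.9% against 94.3% for long ones. Within 3 like classes of ChIP score they were 65.0% against 62.8% for the weakest, 91.2% against 92.5% for the middle and 97.7% against 98.5% for the strongest. The 544 sites kept at day 3 had a median day 0 score of 33.7 and the 112 not kept had 17.2.

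Day 3 CLIP was much more frequent at the CLIP-carrying sites. A reproducible day 3 CLIP peak, present in replicate 1 and overlapped on its strand by replicate 2, lay in 210 of 656 (32.0%, exact 95% interval 28.5 to 35.7), against 263 of 14280 other transcribed sites (1.84%, 1.63 to 2.08), with 3.13% over all 14900. Other sites graded by their day 0 CLIP: 8.26% of those with unmatched peaks of both libraries, 2.67% of those with replicate 1 alone, 3.26% of those with replicate 2 alone and 0.428% of those with none. In single day 3 libraries the shares were 67.1% against 17.9% in replicate 1 and 77.7% against 27.2% in replicate 2. Intervals treat sites as independent and cover counting error only, and sites are not replicates of a condition.

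**Figure D3:**
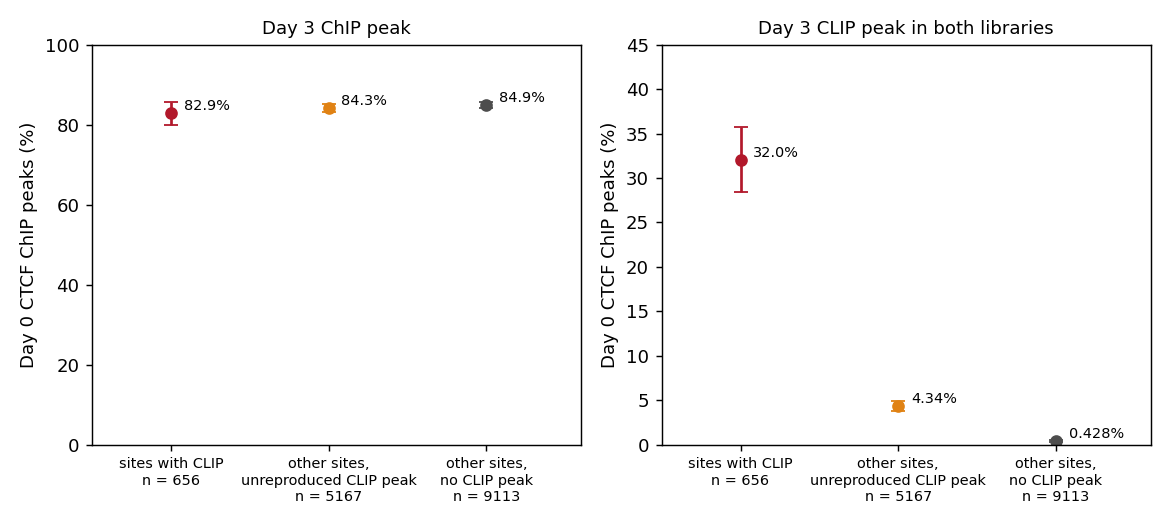
Share of day 0 CTCF ChIP peaks (%, y axes) with a day 3 ChIP peak (left) and with a day 3 CLIP peak of both libraries (right), for the CLIP-carrying sites, the other transcribed sites with an unreproduced day 0 CLIP peak and those with none (x axes). Points are shares and bars are exact 95% intervals: the 3 sets are at 82.9%, 84.3% and 84.9% for ChIP, and at 32.0%, 4.34% and 0.428% for CLIP.

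The size of this gap depended on which CLIP lists were required, while its direction held in every setting tried. When 1 day 0 CLIP library alone chose the sites, the share at day 3 was 7.70% against 0.681% (replicate 2) and 9.89% against 1.09% (replicate 1), differences of 7.02 and 8.80 points against 30.2 with both. When 1 day 3 library alone was read, the difference was 50.5 points with replicate 2 and 49.1 with replicate 1.

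RNA level and the flanking CLIP moved with the day 3 share. In the low FPKM class 5 of 20 CLIP-carrying sites (exact 95% interval 8.66% to 49.1%) had reproducible day 3 CLIP, against 0.525% of the others, in the middle class 22.7% against 2.00%, and in the high class 39.1% against 3.10%. Sites with no flanking day 0 CLIP peak stood at 19.9% (42 of 211) against 1.06%. Those with 1 or 2 flanking peaks were at 30.6% against 3.87%, and those with 3 or more at 47.7% against 11.6%. By peak length the shares were 27.1% against 1.47% in the short class, 22.9% against 1.57% in the middle and 41.2% against 2.51% in the long class. The CLIP-carrying sites were higher in each of these 9 strata.

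**Figure D4:**
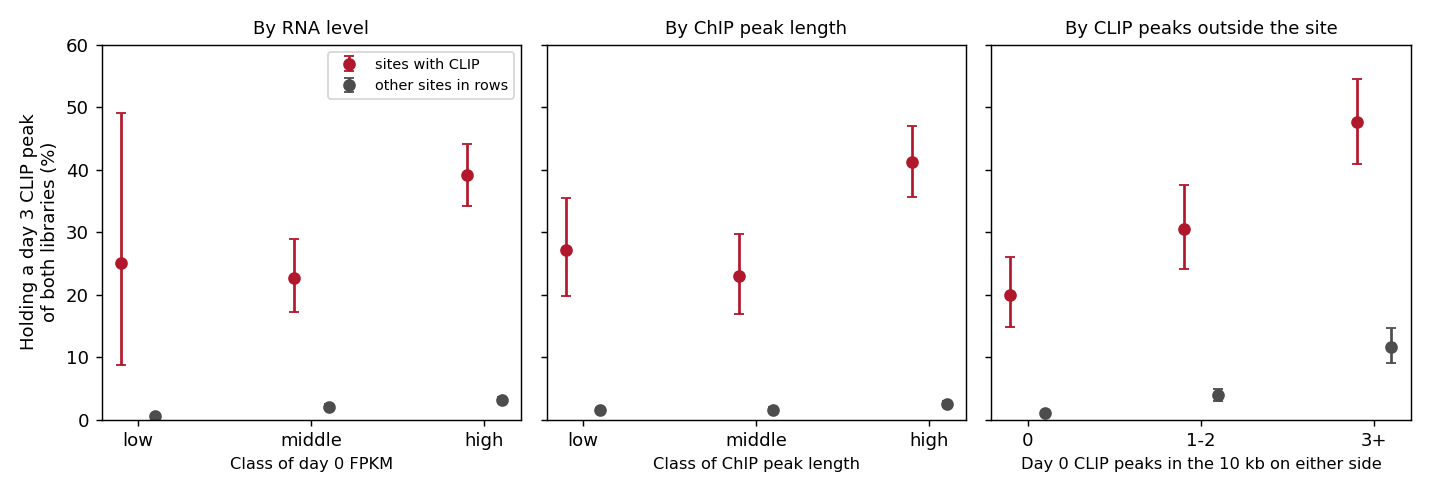
Share of sites with a day 3 CLIP peak of both libraries (%, y axis) for CLIP-carrying sites and the other transcribed sites, split into 3 classes of day 0 FPKM, 3 classes of ChIP peak length and by the number of reproducible day 0 CLIP peaks in the 10 kb on either side (x axes). Points are shares and bars are exact 95% intervals. The CLIP-carrying sites are higher in all 9 strata, with 47.7% against 11.6% where 3 or more CLIP peaks flank the site.

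Among the CLIP-carrying sites themselves, more CLIP at day 0 went with more at day 3. Reproducible day 3 CLIP lay in 117 of 208 sites with 2 or more day 0 CLIP peaks (56.3%, 49.2 to 63.1), against 93 of 448 with 1 (20.8%, 17.1 to 24.8). Sites with day 3 CLIP had a median of 22.0 FPKM at day 0 and a median length of 2692 bp, and sites without it had 14.2 FPKM and 2344 bp. Day 3 ChIP and day 3 CLIP were both present at 177 sites, ChIP without CLIP at 367, CLIP without ChIP at 33 and neither at 79. CLIP was thus found at 177 of the 544 sites still bound on DNA and at 33 of the 112 without a day 3 ChIP peak. The mean number of CLIP peaks in the sites was 2.06 and 2.89 in the day 3 libraries, against 3.28 and 4.85 in the day 0 libraries. In the other transcribed sites the means were 0.271 and 0.448 at day 3, against 0.249 and 0.501 at day 0. Day 0 CLIP chose both sets, so these means are a description. The CLIP peaks were followed singly as well. Of the 1141 in the sites, 204 were overlapped by both day 3 libraries (17.9%, 15.7 to 20.2), against 2676 of 19145 reproducible CLIP peaks elsewhere (14.0%, 13.5 to 14.5). The median FPKM of the transcripts they lay in also differed, at 21.7 against 17.6, and its part in the difference was not tested.

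The X chromosome held more of the CLIP-carrying sites than of the others. On X were 39 of 656 (5.95%, exact 95% interval 4.26 to 8.04), against 367 of 14280 (2.57%, 2.32 to 2.84), with 2.70% over all 14900. Counted the other way, 36 of 403 replicated X sites in transcribed regions met the rule (8.93%, 6.34 to 12.2), against 584 of 14497 autosomal ones (4.03%, 3.71 to 4.36). X had the highest share of the 20 chromosomes, and the next was chromosome 12 at 7.10% (5.10 to 9.58), whose interval overlapped that of X. The lowest was chromosome 16 at 1.87%. Counting each transcribed region once, 30 of 556 regions with a CLIP-carrying site were on X (5.40%, 3.67 to 7.61), against 256 of 8554 with another site (2.99%, 2.64 to 3.38).

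**Figure D5:**
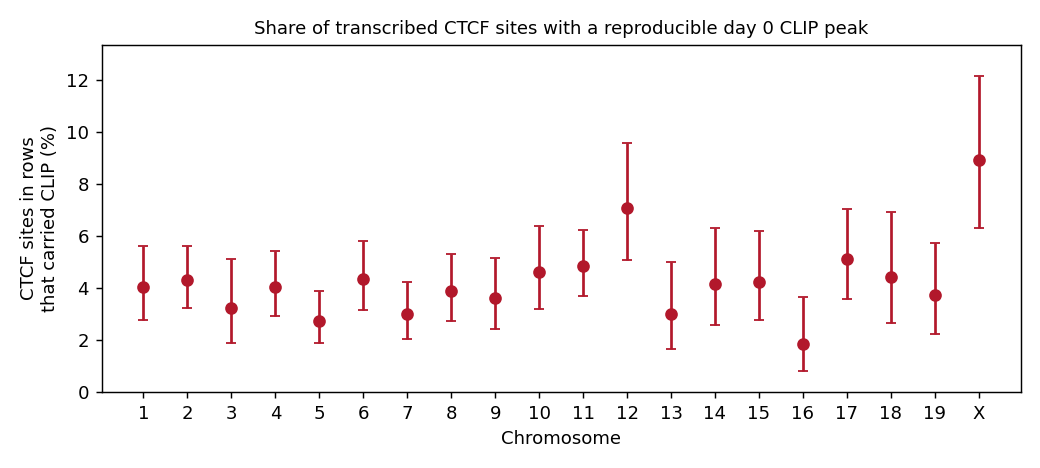
Share of replicated day 0 CTCF ChIP peaks in transcribed regions that carried a reproducible day 0 CLIP peak (%, y axis) on each chromosome (x axis), with exact 95% intervals as bars. X stands at 8.93% and chromosome 12 at 7.10%, and the lowest is chromosome 16 at 1.87%.

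The X excess was smaller when 1 day 0 CLIP library alone chose the sites: 3.54% against 2.34% with replicate 2 and 4.08% against 2.41% with replicate 1, differences of 1.21 and 1.67 points, where both libraries gave 3.38. Within the FPKM classes the rule was met by 0.704% of X sites against 0.394% of autosomal ones at the lowest RNA level, by 11.6% against 4.11% in the middle and by 16.0% against 7.55% at the highest. Flanking CLIP moved with it. At least 1 flanking day 0 CLIP peak lay beside 34 of the 39 X sites (87.2%), against 63.7% of the autosomal ones. Among sites with no flanking CLIP the X share was 2.37% at CLIP-carrying sites against 2.34% at the others. It was 5.70% against 2.67% with 1 or 2 flanking peaks and 9.26% against 7.05% with 3 or more. At day 3, 16 of the 39 X sites carried reproducible CLIP (41.0%, 25.6 to 57.9), against 12 of 367 other X sites (3.27%). A day 3 ChIP peak lay at 30 of the 39 (76.9%), against 81.2% of the other X sites.

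The 1.5 Mb of X that begin at 100 Mb, which hold the X-inactivation centre, had 30 replicated ChIP peaks, of which 7 carried CLIP, 4 on the minus strand and 3 on the plus strand. The 3 plus-strand sites were neighbours and held most of the CLIP peaks. The first, at 100652236 to 100656618, had 8 and 6 CLIP peaks in the day 3 libraries, against 14 and 22 in the day 0 libraries, of which 1 was reproducible at day 3 and 11 at day 0. Its ChIP score was listed as 44.9 at day 3 and as 49.8 and 17.7 in day 0 replicates 1 and 2. The ChIP lists have medians of 29.6, 26.8 and 16.6 and their scales are not named, so such scores are given as listed, and no difference is read from them. Its RNA stood at 13.1 FPKM at day 3, against 18.8 FPKM. It held both a 5' and a 3' end of a listed region, and 41 further reproducible day 0 CLIP peaks lay within 10 kb of it.

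The second, at 100663221 to 100667677, had 5 and 5 CLIP peaks at day 3, against 13 and 14 at day 0, with 0 reproducible at day 3 and 7 at day 0. Its listed ChIP scores were 17.5 at day 3 and 38.8 and 25.9 at day 0. The third, at 100671909 to 100674246, lay outside the day 0 transcribed regions. It had 7 and 6 CLIP peaks at day 3, against 8 and 8 at day 0, with 1 reproducible at day 3 and 2 at day 0. Its listed ChIP scores were 27.0 at day 3 and 23.4 and 33.9 at day 0. All 3 had fewer CLIP peaks in each day 3 library than in either day 0 library. The sites were chosen on day 0 CLIP, and the lists differ in length and the counts were not scaled to them, so lower day 3 counts are not read as a change.

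The 4 minus-strand sites each held fewer reproducible day 0 CLIP peaks than the first and the second plus-strand site. That at 101171057 to 101173441 had 7 and 5 CLIP peaks at day 3, against 4 and 13 at day 0, so the days overlapped. It had 3 reproducible CLIP peaks on each day and no day 3 ChIP peak, with day 0 scores of 32.4 and 25.9. Its RNA stood at 48.7 FPKM at day 3, against 24.9 FPKM. The other minus-strand sites, at 100411798 to 100413930, 100429009 to 100430881 and 100454310 to 100456620, had 1 reproducible day 0 CLIP peak each and none at day 3. Of these, only the last had a day 3 ChIP peak, with a listed score of 36.4, and of 37.2 and 41.1 at day 0.

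Across the genome, the sites with the most CLIP were long ChIP peaks whose score rank differed between the ChIP lists. The 12 with the most reproducible day 0 CLIP peaks, counting at most 2 per transcribed region, held 9 to 14 each. Their median ChIP peak length was 4799 bp (1940 to 10969 bp). In the day 3 list 11 of them had a score, with a median of 42.2, and 4 were under the median of 37.0 for all replicated peaks. In day 0 replicate 1 the median was 37.5, with 5 of 12 under the overall 33.4. In replicate 2 it was 20.7, with 8 of 12 under the overall 32.6. All 12 had reproducible day 3 CLIP, against 32.0% of all 656 and 56.3% of the 208 with 2 or more day 0 CLIP peaks. A day 3 ChIP peak lay at 11 of the 12, and at 82.9% of all 656.

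The site on chromosome 3, 41400517 to 41406046, inside a plus-strand region, had 17 and 11 CLIP peaks at day 3, against 24 and 24 at day 0, with 9 reproducible at day 3 and 14 at day 0. Its listed ChIP scores were 28.4 at day 3 and 51.7 and 18.8 at day 0. Its RNA was listed at 59.5 FPKM at day 3, against 1850.6 FPKM. What lies behind so high a value was not tested, and RNA-seq had 1 library a day. The site on chromosome 6, 122676520 to 122679599, at the 3' end of a minus-strand region, also held 14. It had 13 and 16 CLIP peaks at day 3, against 16 and 32 at day 0, so the days touched, and listed ChIP scores of 26.6 at day 3 and of 22.0 and 22.6 at day 0. RNA there was at 93.1 FPKM at day 3, against 78.7 FPKM.

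Just before it on chromosome 6, the plus-strand site at 122658375 to 122665410 had no day 3 ChIP peak, the single one of the 12 without. It had 1 and 7 CLIP peaks at day 3, against 19 and 29 at day 0, and listed day 0 ChIP scores of 39.7 and 18.3. Its RNA was at 9.23 FPKM at day 3, against 27.7 FPKM. As it was picked for its day 0 CLIP, its lower day 3 CLIP counts are a description. The longest of the 656 ChIP peaks, on chromosome 19 at 4803351 to 4814319, held 13 reproducible day 0 CLIP peaks on the minus strand. It had 14 and 18 CLIP peaks at day 3, against 22 and 46 at day 0.

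Sites bound on DNA at day 3 with the most day 3 CLIP were mostly the same ones: 5 of the 6 were also among the 12. The exception was on chromosome 6, 39349230 to 39355964, on the minus strand. It had 26 and 22 CLIP peaks at day 3, against 7 and 18 at day 0, with 14 reproducible at day 3 and 4 at day 0, so both day 3 counts were above both day 0 counts. Its listed ChIP scores were 73.4 at day 3 and 83.8 and 41.0 at day 0, and its RNA was listed at 42.8 FPKM at day 3, against 887.5 FPKM. Each FPKM value is that of the day's highest region overlapping the site, on either strand. The regions were not matched between days, so no direction of RNA change is read there. On the same chromosome, the minus-strand site at 51416110 to 51420801 had 21 and 16 CLIP peaks at day 3, against 15 and 31 at day 0, and 14 reproducible at day 3 against 13. The RNA there stood at 179.9 FPKM at day 3, against 24.7 FPKM. Another, on chromosome 12 at 110779206 to 110784111, held the 5' end of a plus-strand region and had 39 further reproducible day 0 CLIP peaks within 10 kb. It had 17 and 15 CLIP peaks at day 3, against 13 and 22 at day 0, and RNA listed at 27486 FPKM at day 3, against 43.9 FPKM.

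The CLIP-carrying sites with the highest ChIP scores had about as many CLIP peaks as the rest. The 8 with the highest replicate 2 score, from 88.2 to 144.9, held 1 to 3 reproducible CLIP peaks. Of these 8, 7 held 1 or 2, as did 560 of all 656 (85.4%), and 3 had reproducible day 3 CLIP, which 32.0% of all 656 had. The highest, on chromosome 11 at 69391733 to 69394162, held the 5' end of a plus-strand region. It had no CLIP peak in either day 3 library, against 2 and 2 at day 0, while its ChIP score was listed as 100.7 at day 3 and as 149.6 and 144.9 at day 0. Another, on the plus strand of chromosome 2 at 32766937 to 32769367, had 0 and 1 CLIP peaks at day 3, against 1 and 2 at day 0, and listed scores of 103.3 at day 3 and of 114.1 and 126.5 at day 0. All 8 had a ChIP peak at day 3. In the strongest class of ChIP score, 97.7% of CLIP-carrying sites and 98.5% of other transcribed sites had one.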

How the data were processed

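Of 16 samples, 9 were used, with 4 CLIP libraries from irradiated cells, 3 from ChIP and 2 from nuclear RNA. The libraries from non-irradiated cells and the input chromatin were not used here. Samples were grouped by title; the day 0 ChIP library without a number was taken as replicate 1. Per the submitters' processing notes, the build was mm9 and the named tools, given without roles, were Cufflinks 2.1.1, TopHat2 2.0.8, bedtools 2.17.0, Novoalign 3.00.03, cutadapt 1.0, SAMtools 0.1.18 and Trim Galore 0.3.3. Which program called peaks is not given in the sources used. The deposited peak lists, made by the authors per library, hold a score whose scale is not named, so sites were compared by score only within a list; scores of other lists beside them are given as listed. The deposited RNA-seq regions hold a value taken as FPKM because the authors' tools include Cufflinks; pooled transcripts share 1 FPKM. No CLIP background and no read depth could be set beside the values.

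Peaks on chromosomes 1 to 19 and X were joined by overlaps of at least 1 bp. A site's FPKM was that of its highest overlapping region of each day, on either strand, and regions were not matched between days. Shares have exact Clopper-Pearson 95% intervals, medians order-statistic 95% intervals and differences of shares Newcombe intervals, all over sites, which are not replicates; no test across samples was made. The overlap step was tested on simulated intervals. Alternatives were the overlap rule, score, FPKM minimum, peak length, the window at starts, peaks wholly inside a region and leaving out each library. Named sites were the 12 with most reproducible day 0 CLIP peaks (at most 2 per region), the 8 with the highest replicate 2 score, those on X in the 1.5 Mb that begin at 100 Mb, and the 6 with most reproducible day 3 CLIP peaks among those with day 3 ChIP; some are printed. Members and lists were chosen with earlier results of these data known. Gene names, motifs and sequences were not used here, as no mm9 reference was at hand. Scripts ran on Python 3.11.15 with SciPy 1.17.1, NumPy 2.4.6, matplotlib 3.10.9 and pandas 2.3.3.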

Additional observations from a re-analysis of the deposited data

How the results depend on the processing

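All differences are CLIP-carrying sites minus other transcribed sites, in percentage points for shares. Of 75 recomputed values, 47 stayed within the interval of the value reported and 26 moved outside it. The other 2 changed sign among results whose reported interval kept 1 sign. Sign changes of the day 3 ChIP and 5' end differences, whose reported intervals spanned both signs, are counted among the 47 or the 26. The causes were not tested. With the upper 50% of each list by score, the day 3 CLIP difference was 43.0, the length difference 187 bp, the RNA difference 10.3 FPKM, the 5' end difference 6.48 and the central share of CLIP peaks 29.0%. With ChIP peaks no longer than the median, the day 3 ChIP difference was -7.39, the day 3 CLIP difference 23.3, the length difference 2.5 bp and the central share 29.0%. Leaving out 1 library at a time gave ranges of 7.02 to 50.5 for day 3 CLIP, -6.08 to 0.507 for day 3 ChIP, 12 to 133 bp for length, -1.75 to 0.309 for ChIP score, 4.67 to 8.99 FPKM for RNA, -7.84 to 0.185 for 5' ends, 1.21 to 3.76 for X and 30.9% to 32.4% for the central share. The score difference changed sign without ChIP day 0 replicate 2 (0.309) and without CLIP day 0 replicate 1 (0.175). Keeping only ChIP peaks wholly inside a transcribed region, an alternative chosen after seeing the data, left every value within its interval, as did an overlap of at least 50% and a minimum of 1 FPKM. The day 3 CLIP, RNA and X differences kept their direction in every setting run. No paired analysis was possible because the results are shares and medians over peak lists, with no test across samples. The lists give no depth, so a site without a peak may lie below what its library could show.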

Other observations

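The 36 CLIP-carrying sites outside the day 0 transcribed regions had a median length of 2294.5 bp, against 2390.5 bp for the 620 inside such regions, and 4 of them (11.1%, exact 95% interval 3.11 to 26.1) exceeded 3000 bp, against 30.3%. Of the 36, 10 lay in a region listed at day 3. Reproducible day 3 CLIP was present at 6 of the 36 (16.7%, exact 95% interval 6.37 to 32.8), against 204 of the 620 inside such regions (32.9%, 29.2 to 36.8). A day 3 ChIP peak overlapped 29 of the 36 (80.6%), against 83.1% of the 620.

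The authors also deposited lists of peaks assigned to the cas or the mus allele. What sets an assignment is not stated. At autosomal CLIP-carrying sites with 1 allele listed, 25 were cas and 342 mus in the day 3 ChIP library. In the day 0 libraries 47 and 48 were cas with 408 and 455 mus. The other transcribed sites on all autosomes had 727 cas and 7712 mus at day 3. Those on chromosome 13 were nearer even, with 49 cas and 50 mus at day 3, and 61 and 100 cas with 73 and 118 mus at day 0. How this bears on X was not tested. Of the 39 CLIP-carrying sites on X, the day 3 ChIP library listed 7 as cas alone and 2 as mus alone, and day 0 replicates 1 and 2 listed 11 and 8 as cas alone and 6 and 5 as mus alone. Among the 367 other X sites the counts were 30 cas and 33 mus at day 3, and 53 and 66 cas with 49 and 82 mus at day 0. The cas share at CLIP-carrying X sites with 1 allele listed was 77.8% at day 3 (exact 95% interval 40.0 to 97.2, 9 sites), and its interval holds the 47.6% of the other X sites. CLIP peaks at the 39 X sites were listed about evenly, at 7 and 8 sites as cas alone and 7 and 9 as mus alone in the day 3 libraries, and at 8 and 10 as cas alone and 10 and 11 as mus alone in the day 0 libraries.

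The regions with the most CLIP-carrying sites held 3 each, and 3 of these 11 regions were on X. Of all 556 regions with a CLIP-carrying site 30 were on X (5.40%), and of the 8554 with another site 256 were (2.99%). On X, a plus-strand region at 12647744 to 12742740 and a plus-strand region at 50355256 to 50374836 each held 6 reproducible day 0 CLIP peaks in their 3 sites, with no other replicated CTCF site in the region, and a minus-strand region at 47916068 to 47965657 held 4. These regions were picked after their values were seen.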
